A study of Mus musculus with 8 samples.

Results

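Respiratory complex I was examined in isolated mouse hepatocytes as the set of genes whose symbols start with Ndufa, Ndufb, Ndufc, Ndufs or Ndufv, with *Ndufa4l2* left out. The members reported were 44 of the 21368 genes that could be named on the arrays: 6 core subunits of the peripheral arm, 9 accessory subunits of the peripheral arm, 19 accessory subunits of the membrane arm, the pair *Ndufab1* and *Ndufa4*, and 8 assembly factors of the Ndufaf series. The hCNR1+/+ group (labelled hCNR1_WT, strain CNRO) held control littermates, and the hCNR1-/- group (labelled hCNR1_cKO, strain CNRO Alb-Cre) held mice in which floxed *Cnr1*, the gene of the cannabinoid 1 receptor, was crossed with a Cre under the albumin promoter, which is active in hepatocytes. Both groups were males of 12 to 14 weeks on a standard diet with no treatment, with 4 mice and 1 array per mouse in each. The strain labels name the Cre only for the hCNR1-/- mice, so the deletion and the Cre cannot be told apart. The comparison asks how the hepatocyte transcriptome of mice lacking the receptor in hepatocytes differs from that of their littermates, here for the genes of one enzyme.

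Complex I is the entry point of the mitochondrial respiratory chain: it takes electrons from NADH, passes them along a flavin and a row of iron-sulfur clusters to ubiquinone, and pumps protons across the inner membrane. Its peripheral arm carries the flavin and the clusters, its membrane arm carries the proton channels, and assembly factors that are not part of the finished enzyme help to build it. The proton-pumping core of the membrane arm is encoded by mitochondrial DNA and had no named probe here, so the membrane arm is described by its nuclear accessory subunits. *Ndufb1* had no named probe either and was not analysed here. *Ndufa4* keeps its complex I name but is now counted with cytochrome c oxidase, and *Ndufab1* is the mitochondrial acyl carrier protein, which also serves fatty acid synthesis.

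The arrays were 1-colour Agilent arrays on 1 slide, where hCNR1+/+ samples filled row 1 and hCNR1-/- samples row 2; position on the slide and genotype therefore cannot be told apart. *Cnr1* was measured by a single probe, well above background on none of the 8 arrays, so the arrays leave the genotype labels unchecked. The study shows *Cnr1* mRNA of isolated hepatocytes of both genotypes in a separate figure panel, which was not used here. On 7 arrays 35.0% to 42.3% of spots were well above background. On the array of hCNR1-/- replicate 4 it was 28.6%, and the 75th percentile of intensity was also the lowest there at 29.27, against 61.99 to 139.4 on the others. Its mean correlation with the other arrays of its group was 0.9424, against 0.9723 to 0.9753 for replicates 1 to 3, so that results below are given with and without it where it decides them. Of 16 tested hepatocyte markers, all were well above background on all 8 arrays, and their mean level ran from 8.47 to 9.22 in hCNR1+/+ and from 8.50 to 8.88 in hCNR1-/- hepatocytes. Single markers differed more, with log2 fold changes (hCNR1-/- minus hCNR1+/+) from -1.81 for *Pck1* to 1.63 for *Apob*, 8 above 0 and 8 below. *Apob* was the only one past an adjusted p of 0.05 (adjusted p = 0.0477 in limma).

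Promoter sequence is shown first for the 3 members with the most positive difference between genotypes, *Ndufb2*, *Ndufb4* and *Ndufs7*, as the 250 bases before the annotated start, 5′ to 3′ along the gene, from RefSeq on GRCm38.p6. The windows are chr6:39592315-39592564 on the plus strand, chr16:37654369-37654618 on the minus strand and chr10:80249199-80249448 on the plus strand. Capitals mark AAGGTCA, the site of oestrogen-related receptors, in the promoters of the membrane-arm subunits *Ndufb2* and *Ndufb4*. In the promoter of the core subunit *Ndufs7* they mark TATAAA, the letters of a TATA box. Whether these letters act as a TATA box at their distance from the start was not tested.
Ndufb2: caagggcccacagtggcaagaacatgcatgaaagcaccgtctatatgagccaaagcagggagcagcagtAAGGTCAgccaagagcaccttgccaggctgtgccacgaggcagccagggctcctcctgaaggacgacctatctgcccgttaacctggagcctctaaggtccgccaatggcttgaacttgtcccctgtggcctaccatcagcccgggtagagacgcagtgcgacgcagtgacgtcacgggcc
Ndufb4: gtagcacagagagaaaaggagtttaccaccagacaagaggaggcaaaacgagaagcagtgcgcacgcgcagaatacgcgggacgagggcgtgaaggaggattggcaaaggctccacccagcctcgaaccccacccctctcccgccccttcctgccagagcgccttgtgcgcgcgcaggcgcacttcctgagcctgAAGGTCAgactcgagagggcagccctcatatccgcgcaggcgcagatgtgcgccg
Ndufs7: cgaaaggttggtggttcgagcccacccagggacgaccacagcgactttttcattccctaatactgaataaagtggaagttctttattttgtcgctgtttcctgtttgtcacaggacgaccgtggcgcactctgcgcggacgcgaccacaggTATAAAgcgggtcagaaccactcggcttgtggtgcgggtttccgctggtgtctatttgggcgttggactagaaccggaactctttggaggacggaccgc

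Windows of 300 bases, 250 before and 50 after the start, were at hand for 40 of the 44 members, 42 windows in all. AAGGTCA on either strand was found in 3 member windows, those of *Ndufb2*, *Ndufb4* and the accessory subunit *Ndufs5*, which is 7.14% of member windows against 4.72% of all 32851 windows. ATGGCGG, a YY1 site, was found in 26.2% of member windows against 4.05%, and GCGCATG, an NRF1 site, in 16.7% against 3.91%. The YY1 site was found for 10 members, among them *Ndufs7*, whose match is not wholly within the 250 bases shown. NRF1 and YY1 are known regulators of nuclear genes of respiratory subunits. CCGGAAG, a site of GABPA and other ETS factors, was found in 14.3% against 8.86%, and TATAAA in 11.9% against 13.6%. Median GC content was 59.3% in the member windows and 52.7% in all windows. These matches describe the letters in the windows and were not set against the expression values by any test.

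All 44 members were well above background on all 8 arrays, and all were among the 11072 genes tested. *Ndufb2* and *Ndufb4*, both accessory subunits of the membrane arm, rose in hCNR1-/- hepatocytes, by 2.17-fold and 2.07-fold. They were the only members past an adjusted p of 0.05 in limma, 2 of 44 higher and 0 lower, where 2.94% of all genes tested were called higher and 1.3% lower; both also passed a fold above 2 with an unadjusted p below 0.05, where 4.78% of all genes were called higher and 3.75% lower. At an unadjusted p below 0.05, 15 of 44 members were higher and 0 lower, beside 14.7% and 6.92% of all genes. For 15 members, 34.1%, every hCNR1-/- array lay above every hCNR1+/+ array, beside 12.7% of all genes, and for 0 members the groups were separated the other way, beside 5.04% of all genes. The log2 fold change was above 0 for 31 of 44 members, beside 56.6% of all genes, and its median was 0.24 over the members and 0.08 over all genes tested. These p-values measure the spread between the 4 mice of a group as labelled, each on 1 array. In bulk RNA, fewer cells of a type and less RNA per cell cannot be told apart.

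**Figure D1:**
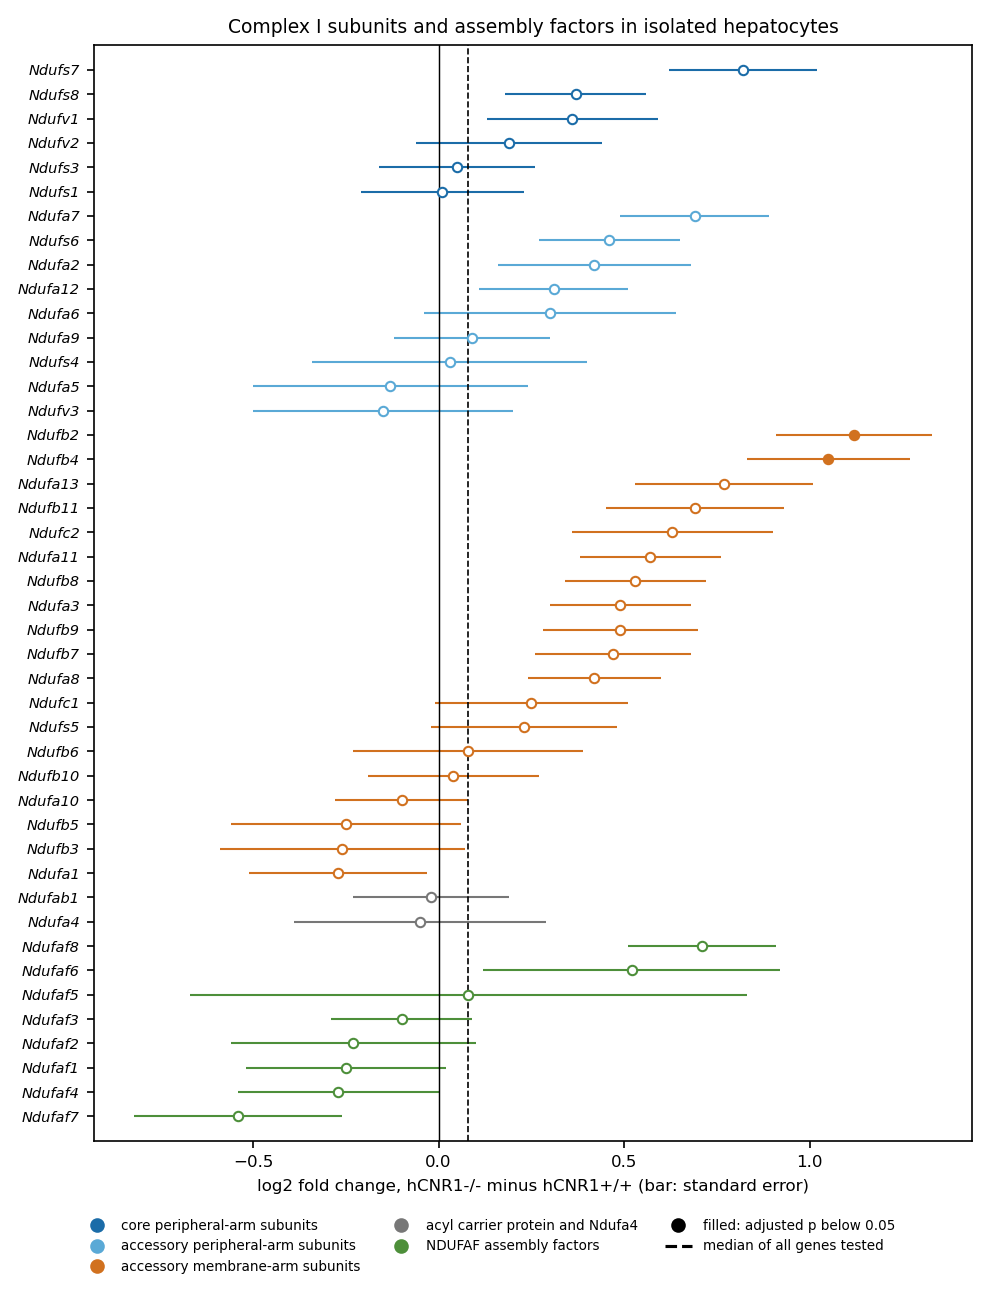
Log2 fold change (hCNR1-/- minus hCNR1+/+, x axis) of each of the 44 members, grouped by role and ordered within the group, with standard errors as bars; filled points have an adjusted p below 0.05 in limma and the dashed line is the median of all genes tested, 0.08. The 2 filled points are Ndufb2 at 1.12 and Ndufb4 at 1.05, both in the membrane arm, and 5 of the 8 assembly factors lie below 0.

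The core subunits of the peripheral arm, most of which bind the flavin or iron-sulfur clusters, had a median log2 fold change of 0.27. All 6 were above 0, of which *Ndufs1* and *Ndufs3* turned sign under several other scalings, and none passed the adjusted threshold. *Ndufs7* carries the last iron-sulfur cluster before ubiquinone. Its log2 level, relative to the 75th percentile of each array as all levels here, was 7.25, 7.16, 7.01 and 6.94 in hCNR1+/+ replicates 1 to 4. In hCNR1-/- replicates 1 to 4 it was 7.84, 8.02, 7.63 and 8.15. All hCNR1-/- arrays lay above all hCNR1+/+ arrays, with a log2 fold change of 0.82 (SE 0.20) and an adjusted p of 0.0515 in limma, just over the threshold. The exact two-sided permutation p over the 70 assignments of arrays was 0.0286, the smallest that 4 against 4 can give. Every member separated in this way has that value, so it adds nothing to the separation. Without hCNR1-/- replicate 4 the fold change was 0.74 with an adjusted p of 0.0282.

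*Ndufs8*, another iron-sulfur subunit, was also separated between genotypes, from 4.21 to 4.64 in hCNR1+/+ and from 4.73 to 5.05 in hCNR1-/- hepatocytes, but its log2 fold change of 0.37 (SE 0.19) had an adjusted p of 0.304 in limma. *Ndufv1*, which binds the flavin and oxidises NADH, had levels of 7.40, 7.46, 7.93 and 8.03 in hCNR1+/+ and 7.88, 8.18, 7.85 and 8.37 in hCNR1-/- hepatocytes. The groups overlapped, and the log2 fold change of 0.36 (SE 0.23) had an adjusted p of 0.403 in limma. *Ndufv2*, its iron-sulfur partner, had 4.89, 4.99, 5.05 and 4.71 in hCNR1+/+ and 5.34, 5.23, 5.37 and 4.43 in hCNR1-/- hepatocytes. Replicates 1 to 3 of hCNR1-/- were above all hCNR1+/+ arrays and replicate 4 was below them all, which left a log2 fold change of 0.19 (SE 0.25). Without replicate 4 of hCNR1-/- it was 0.41.

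*Ndufs1*, the subunit with the most clusters at the NADH end, had means of 2.83 ± 0.23 and 2.84 ± 0.28 (SD, n = 4) in hCNR1+/+ and hCNR1-/- hepatocytes, and the log2 fold change was 0.01 with a 95% interval from -0.48 to 0.51. *Ndufs3*, at the base of the peripheral arm, had 7.07 ± 0.22 and 7.12 ± 0.23 (SD, n = 4), a log2 fold change of 0.05 with an interval from -0.42 to 0.53. The intervals of both subunits allow differences of up to 0.48 downward or 0.53 upward on the log2 scale, so a missing call does not show equal levels.

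**Figure D2:**
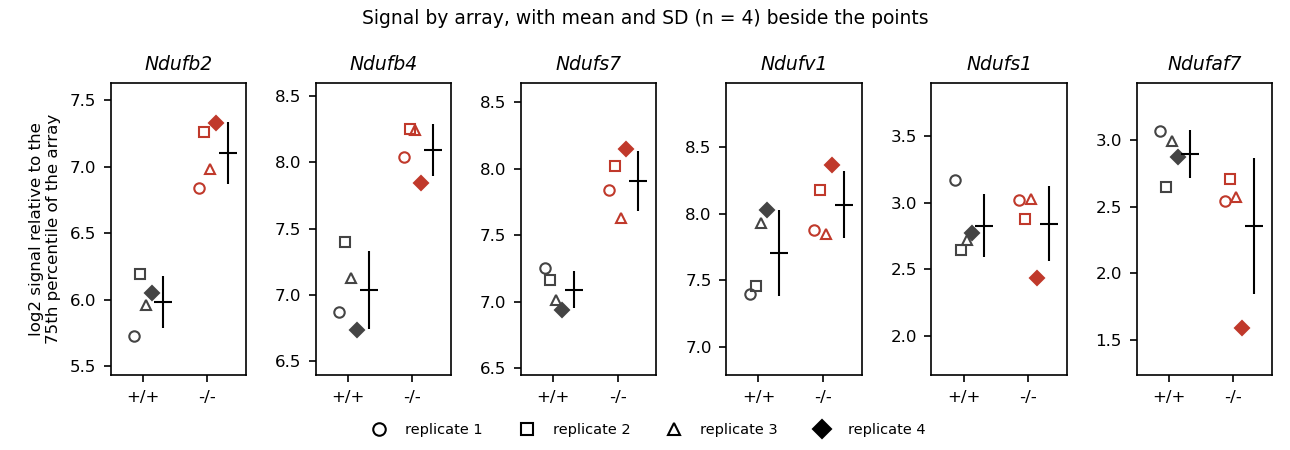
Log2 signal relative to the 75th percentile of each array (y axis, the same span of 2.2 log2 units in every panel) for 6 members in the 4 hCNR1+/+ and 4 hCNR1-/- arrays, with the mean and SD beside the points; filled diamonds are replicate 4. For Ndufb2, Ndufb4 and Ndufs7 all hCNR1-/- arrays lie above all hCNR1+/+ arrays, for Ndufv1 and Ndufs1 the groups overlap, and for Ndufaf7 replicate 4 of hCNR1-/- lies lowest at 1.59.

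The 9 accessory subunits of the peripheral arm had a median log2 fold change of 0.30, with 7 above 0, 2 of them separated between genotypes and none called. Relative to the median of all genes it was 0.22, and 0.04 without hCNR1+/+ replicate 4 and 0.07 after quantile normalization or with no filter on dim probes. *Ndufa7* ran from 7.74 to 8.14 in hCNR1+/+ and from 8.45 to 8.83 in hCNR1-/- hepatocytes (log2 fold change 0.69, SE 0.20). *Ndufs6*, which holds a zinc ion near the NADH end, ran from 7.43 to 7.83 and from 7.84 to 8.22, a log2 fold change of 0.46. *Ndufa2*, *Ndufa12* and *Ndufa6* lay at 0.42, 0.31 and 0.30, and in each of them hCNR1-/- replicates 1 to 3 were above all hCNR1+/+ arrays while replicate 4 was not. *Ndufs4*, whose loss impairs complex I in mouse models of mitochondrial disease, had 4.31 ± 0.64 in hCNR1+/+ and 4.34 ± 0.54 in hCNR1-/- hepatocytes (SD, n = 4). Replicate 4 of both genotypes was low for *Ndufs4*, at 3.48 and 3.53, against 4.15 to 4.82 in the other 6 arrays. *Ndufa9* lay at 0.09, *Ndufa5* at -0.13 and *Ndufv3* at -0.15.

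The membrane-arm accessory subunits surround the proton-pumping core and had the most positive median of the 5 groups, 0.47; 15 of 19 were above 0 and 10 of 19, 52.6%, were separated between genotypes with hCNR1-/- higher, beside 12.7% of all genes. That order of medians turned without hCNR1-/- replicate 4, with 0.42 for these subunits and 0.44 for the accessory subunits of the peripheral arm. Over all complex I members together, separation fell to near the share of all genes under median scaling, given below. Under other scalings it was not counted for the membrane arm alone. *Ndufb2*, a small single-span subunit at the far end of the arm, had levels of 5.73, 6.19, 5.96 and 6.05 in hCNR1+/+ replicates 1 to 4. In hCNR1-/- replicates 1 to 4 it had 6.84, 7.26, 6.98 and 7.33. The groups were far from overlapping, with a gap of more than the range within either group, and the log2 fold change was 1.12 (SE 0.21, adjusted p = 0.0257 in limma). *Ndufb4*, also of the distal part of the arm, had 6.87, 7.40, 7.13 and 6.74 in hCNR1+/+ and 8.04, 8.25, 8.24 and 7.84 in hCNR1-/- hepatocytes. Again every hCNR1-/- array was higher, by 1.05 on the log2 scale (SE 0.22, adjusted p = 0.0345 in limma), and its second probe gave 1.01. The annotation lists protein-coding copies of this gene, *Ndufb4b* and *Ndufb4c*, and whether the probes tell them apart was not checked here.

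The other membrane-arm subunits separated between genotypes were *Ndufa13*, *Ndufb11*, *Ndufa11*, *Ndufb8*, *Ndufa3*, *Ndufb9*, *Ndufb7* and *Ndufa8*, with log2 fold changes of 0.77, 0.69, 0.57, 0.53, 0.49, 0.49, 0.47 and 0.42, none past the adjusted threshold. *Ndufa13*, also known as GRIM-19, had the brightest probe of all members, with 8.44, 8.65, 8.85 and 8.99 in hCNR1+/+ and 9.18, 9.53, 9.30 and 10.00 in hCNR1-/- hepatocytes (adjusted p = 0.103 in limma). *Ndufc2* had a log2 fold change of 0.63, and its hCNR1-/- replicates 1 to 3, at 7.30 to 7.43, lay above the hCNR1+/+ range of 6.33 to 6.76 while replicate 4 was inside it at 6.42. *Ndufc1*, *Ndufs5*, *Ndufb6* and *Ndufb10* lay between 0.04 and 0.25. Below 0 were *Ndufa10* at -0.10, *Ndufb5* at -0.25, *Ndufb3* at -0.26 and *Ndufa1* at -0.27. *Ndufa1*, a small X-linked subunit needed for assembly, was close to constant in hCNR1+/+ hepatocytes, at 6.09, 6.10, 6.06 and 6.11, and spread in hCNR1-/- hepatocytes, at 5.68, 5.84, 6.37 and 5.38. Its groups overlapped through hCNR1-/- replicate 3.

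The 8 Ndufaf assembly factors had a median log2 fold change of -0.17; 3 were above 0 and 5 below, and none was called. *Ndufaf7*, a mitochondrial methyltransferase that acts on a complex I subunit, had the most negative value of all members. It had 3.07, 2.65, 2.99 and 2.87 in hCNR1+/+ and 2.54, 2.71, 2.57 and 1.59 in hCNR1-/- hepatocytes, for a difference of -0.54 on the log2 scale (SE 0.28, adjusted p = 0.289 in limma). One hCNR1-/- array lay above the lowest hCNR1+/+ array, and without replicate 4 the log2 fold change was -0.29. *Ndufaf8*, a partner of *Ndufaf5*, was the only one separated between genotypes, from 2.31 to 2.68 and from 2.88 to 3.41, a log2 fold change of 0.71 (SE 0.20, adjusted p = 0.0823 in limma).

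*Ndufaf6*, a factor needed early in assembly, was the dimmest member, with 1.38, 1.80, 1.59 and 1.61 in hCNR1+/+ and 2.47, 2.51, 2.71 and 0.77 in hCNR1-/- hepatocytes. Its first 3 hCNR1-/- arrays were above all hCNR1+/+ arrays and the other one below them all; the log2 fold change was 0.52 (SE 0.40) with all arrays and 0.97 (SE 0.16) without replicate 4. *Ndufaf5*, which hydroxylates *Ndufs7*, was high in replicate 4 of both genotypes, at 4.05 and 4.74, against 1.41 to 2.67 in the other 6 arrays, and its log2 fold change was 0.08 (SE 0.75). *Ndufaf4*, which works with *Ndufaf3* on the ubiquinone module, had 3.95, 3.76, 3.70 and 3.49 in hCNR1+/+ and 3.70, 3.45, 3.92 and 2.75 in hCNR1-/- hepatocytes. The groups overlapped, and the log2 fold change was -0.27 (SE 0.27), and -0.03 without hCNR1-/- replicate 4. *Ndufaf1*, *Ndufaf2* and *Ndufaf3* lay at -0.25, -0.23 and -0.10.

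Of the 8 members with more than 1 probe, 2 had probes that differed in sign. For *Ndufaf4* the dimmer probe gave 0.11 (SE 0.43) against -0.27, and for *Ndufv3* the dimmer probe gave 0.04 (SE 0.29) against -0.15. *Ndufb5* had probes of the same sign and unlike size: the brighter one gave -0.25 (SE 0.35 in the fit by probe) and the dimmer one -1.79 (SE 0.67), with the dimmer one not well above background on 1 hCNR1-/- array. The paired probes of *Ndufb11* and *Ndufb6* were both above 0, and those of *Ndufa5* both below.

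The array of hCNR1-/- replicate 4 stood at the edge of the range for most members, as it did for most genes tested. It was the lowest of the 8 arrays for 18 of 44 members and the highest for 10, beside 38.9% and 21.3% of all genes tested. It was lowest for 5 and highest for 1 of 8 assembly factors, lowest for 5 and highest for 6 of 19 membrane-arm subunits, and lowest for 3 and highest for 3 of 6 core subunits. *Ndufa13*, *Ndufb11* and *Ndufb2* were among the members highest there. Without hCNR1-/- replicate 4, 8 of 44 members were called higher and 0 lower at an adjusted p below 0.05 in limma. Of all genes, 10.1% were called higher and 2.92% lower. The 8 members were *Ndufb4*, *Ndufb2*, *Ndufaf6*, *Ndufc2*, *Ndufa7*, *Ndufs7*, *Ndufaf8* and *Ndufa2*, with log2 fold changes from 0.66 for *Ndufa2* to 1.14 for *Ndufb4*. Without that array 24 members, 54.5%, were separated with hCNR1-/- higher, beside 24.3% of all genes. The groups were separated the other way for 0 members, beside 6.93% of all genes. The median was 0.37 against 0.17 over all genes, and the median of the assembly factors was then -0.02.

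**Figure D3:**
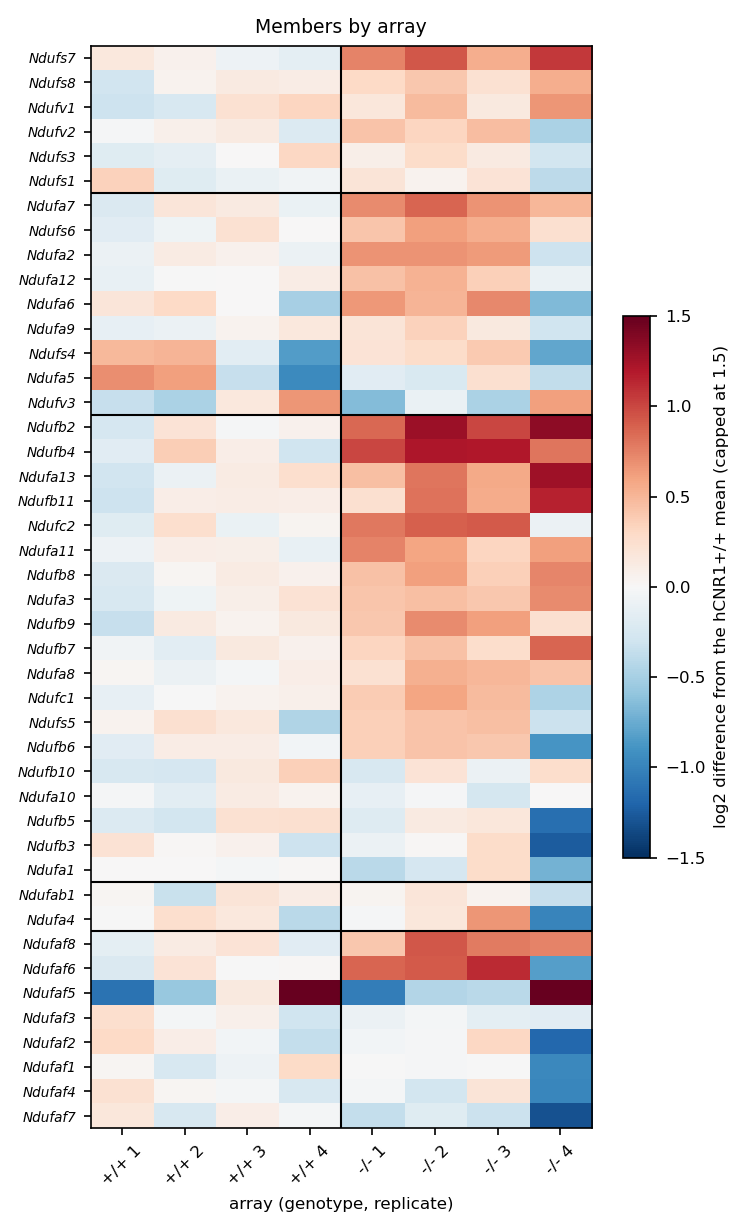
Difference of each member's log2 signal from its hCNR1+/+ mean (colour, capped at 1.5) in each of the 8 arrays (columns, genotype and replicate), with members (rows) grouped by role and ordered by log2 fold change. Replicate 4 of hCNR1-/- is the lowest array for 18 members and the highest for 10, beside 38.9% and 21.3% of all genes tested, and Ndufaf5 is high in replicate 4 of both genotypes.

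The calls and the separation of the groups depended on how the arrays were scaled. *Ndufb2* and *Ndufb4* kept a positive log2 fold change under all 23 alternatives, from 0.56 to 1.21 and from 0.50 to 1.17, and stayed past the adjusted threshold under 9 and 8 of them. Quantile normalization, the array median in place of the 75th percentile, the 75th percentile of bright probes, no scaling, the deposited z-scores and normexp correction each left 0 members called, where the calls over all 11072 genes also fell, from 325 higher to 134, 25, 101, 1, 30 and 28. The share of members separated with hCNR1-/- higher was 11.4% after quantile normalization, beside 9.91% of all genes, 4.55% after median scaling, beside 4.3%, and 25.0% with the bright probes, beside 7.61%. With no scaling, z-scores and normexp it was 0, 2 and 3 members, beside 0.551%, 6.03% and 5.16% of all genes. Single members were separated with hCNR1-/- lower in some of these, with the share of all genes so separated in brackets. *Ndufaf7* was so after quantile normalization (7.14%), with the bright probes (10.3%) and with z-scores (5.72%). *Ndufv3* was so with no scaling (6.37%) and *Ndufb5* with its dimmer probe (5.79%). The dimmer probe of *Ndufb5* also passed the fold and unadjusted p thresholds as lower, beside 4.37% of all genes. With 1 array left out, *Ndufaf7* was so without hCNR1+/+ replicate 2 (7.5%) or hCNR1-/- replicate 2 (6.86%), and *Ndufa1* without hCNR1-/- replicate 3 (6.34%). Array weights gave more calls, with 18 of 44 members called higher beside 19.7% of all genes. Relative to the median of all genes, the membrane-arm median was 0.39, and it was 0.18 after quantile normalization and 0.25 with no filter or without hCNR1-/- replicate 4. The assembly-factor median was -0.25 on that scale, -0.17 after quantile normalization, -0.08 with the most variable probe per gene and -0.40 with no filter. Both relative medians kept their signs under the 23 alternatives. Median scaling, bright probes and no scaling shift all genes of an array alike, so the relative medians could not change under them. The trended variance and the replicate block also left them as reported.

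**Figure D4:**
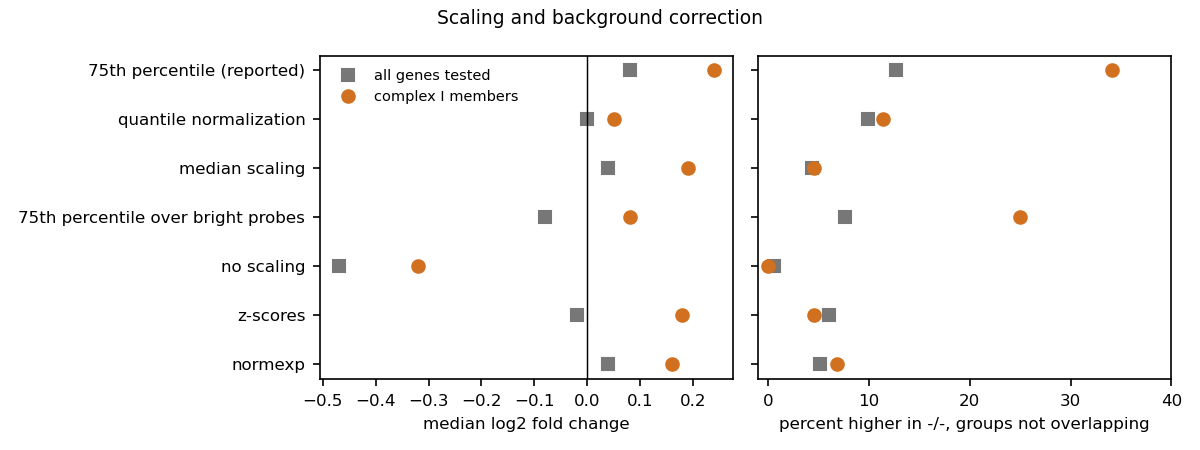
Left, median log2 fold change of the 44 members (circles) and of all genes tested (squares) under 7 ways of scaling or correcting the arrays; right, the percent of each set whose hCNR1-/- arrays all lay above all hCNR1+/+ arrays. The members' median lies above that of all genes in each of the 7, by 0.16 as reported and by 0.05 after quantile normalization, and the share of separated members falls from 34.1% to 11.4% between these. Median scaling, bright probes and no scaling shift all genes of an array alike, so the distance between the medians could not change under them.

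Genes beside complex I were read from lists written for this comparison. Of 10 tested assembly factors outside the Ndufaf series, 5 were above 0 and 5 below, with a median of 0.00. *Timmdc1*, a membrane protein that builds the membrane arm, was the only one called. It had 5.92, 5.72, 6.12 and 6.65 in hCNR1+/+ and 7.26, 7.49, 7.20 and 7.89 in hCNR1-/- hepatocytes, all hCNR1-/- arrays being higher, with a log2 fold change of 1.35 (SE 0.26, adjusted p = 0.0302 in limma). Of 39 nuclear subunits of complexes II to V, 32 were above 0, with a median of 0.29 beside 0.24 for the complex I members, and 12 were separated with hCNR1-/- higher, 30.8%. With all arrays the only one called was *Cox6c*, a subunit of cytochrome c oxidase, with a log2 fold change of 1.13 (SE 0.20, adjusted p = 0.0229 in limma); without hCNR1-/- replicate 4, 10 were called, all higher. Of 17 regulators of mitochondrial gene expression none was called with all arrays and the median was -0.08; without hCNR1-/- replicate 4 the median was 0.18 and 2 were called lower. *Tfam*, which packages and transcribes mitochondrial DNA, had the most negative value of that list, -1.40 (SE 0.43, adjusted p = 0.0981 in limma).

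Markers of other liver cells were read beside these results. All 11 tested Kupffer cell markers had a log2 fold change below 0, with a median of -0.85, and 2 of them, *Marco* and *Ctss*, were called lower in limma. Their summed level, as log2, ran from 6.44 to 7.41 in hCNR1+/+ and from 5.70 to 6.16 in hCNR1-/- hepatocytes, and *Cd163* and *Timd4* were not well above background on any array. The 8 tested endothelial markers had a median of -0.22 with none called and 3 above 0, and *Dnase1l3* and *Tek* were not well above background on any array. Of the lymphocyte and neutrophil list only *Cd3e* and *Nkg7* were tested, at 0.90 and 0.45 with *Cd3e* separated, and of the stellate cell list only *Dcn* and *Ecm1*, at -0.91 and -0.23; none of these was called. The part of these cells in the complex I values was not tested.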

How the data were processed

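Global mRNA of isolated hepatocytes was measured on 8 arrays, 4 per genotype, from 200 ng of total RNA each, labelled with Cy3. The authors deposited spot intensity values from Agilent Feature Extraction version 12.0.3.1 (per the file headers), background-corrected within the array and not scaled between arrays, and for every spot a score that differed by at most 0.005 from its z-score on the log2 scale. Here each array was scaled on the log2 scale to its 75th percentile over 59305 non-control spots. Outlier spots were left out and spots of a probe averaged. RefSeq symbols (GRCm38.p6) were assigned by unversioned accession: 28331 of 55681 probes were named, giving 21368 genes. Each gene was represented by its brightest probe among those above background on 4 or more of the 8 arrays. Genotypes were compared in limma (version 3.58.1; R version 4.3.3) by lmFit with eBayes, and p-values of the 11072 genes were adjusted by Benjamini-Hochberg. The fit was tested on simulated data with independent noise of the same spread on all arrays. That test does not address scaling or an array that deviates from its group. Signals of different probes are not comparable as mRNA amounts.

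The members and lists were chosen with earlier results of these data known. Members named with full values were those called, the 3 most positive and 3 most negative, the core subunits, the brightest and dimmest, and those whose probes differ in sign; others are given by value or range, and *Ndufaf8*, *Ndufaf5*, *Ndufa7*, *Ndufs6*, *Ndufs4*, *Ndufc2* and *Ndufb5* were singled out after their values were seen. With 4 arrays per genotype, precision is limited. A figure legend of the study gives n = 3 per genotype; the labels give 4, the legend does not name the mice, and all 8 arrays were used. The alternatives were other scalings, z-scores, normexp (offset 50, on median spot signals), filters, probe rules, variance models, array weights, a replicate block and leaving out arrays. A slide block was not possible with 1 slide. Probe and protein sequences were not used here, and 1 gene that meets the rule is not reported here.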

Additional observations from a re-analysis of the deposited data

Results flagged for a closer look

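Dixon's ratio of gap to range was examined in 28 groups of 4 arrays, those of the 14 tracked members in each genotype. In 3 of them 1 array lay far from the rest. Chance does so in about 1 of 20 groups that are independent and not selected. These groups share the same arrays and some members were picked for extreme values, so that rate does not measure chance here. All 3 were the array of hCNR1-/- replicate 4. *Ndufaf6*, an early assembly factor, had a log2 signal of 0.77 there, against 2.47 to 2.71 in hCNR1-/- replicates 1 to 3. *Ndufaf7*, a mitochondrial methyltransferase, had 1.59 against 2.54 to 2.71. *Ndufv2*, an iron-sulfur subunit at the NADH end, had 4.43 against 5.23 to 5.37. Members outside the 14 were not examined in this way, and in some of them the same array also lay far below. *Ndufaf1* had 1.84 there against 2.79 to 2.81, *Ndufa2* 6.78 against 7.73 to 7.76 and *Ndufb6* 5.08 against 6.32 to 6.39. The array of hCNR1-/- replicate 4 was also the dimmest of the 8, with 28.6% of spots well above background, and its part in these values was not tested.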

How the results depend on the processing

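Of 44 members, 2 were called at an adjusted p below 0.05 as reported. The count was 0 with quantile normalization, median scaling, the 75th percentile over bright probes, no scaling, z-scores, normexp or no filter on dim probes. With no filter, 8 of 21360 genes were called higher. The count was 4 with a trended and robust variance, beside 413 of 11072 genes called higher. It was 18 with array weights, beside 19.7% of all genes called higher. Without replicate 4 of both genotypes, an alternative chosen after seeing the data, it was 11, beside 15.4%. Leaving out 1 array gave 0 to 8 called members: 8 without hCNR1-/- replicate 4, 1 without hCNR1+/+ replicate 4 and 0 without any of the other 6. Over all genes, 1121 were called higher without hCNR1-/- replicate 4, against 325 with all arrays. That number was 130 without hCNR1+/+ replicate 4 and 13 to 143 without each of the other 6. Members with a fold above 2 and an unadjusted p below 0.05 numbered 2, and 0 with quantile normalization, bright probes or no scaling, 1 with normexp, and 1 to 2 with 1 array left out. Members separated with hCNR1-/- higher numbered 15, and 5 with quantile normalization, 2 with median scaling, 0 with no scaling, 2 with z-scores and 3 with normexp. Without replicate 4 of both genotypes 26 were separated, 59.1% beside 33.7% of all genes. With 1 array left out it was 15 to 24 members, 34.1% to 54.5% beside 13.6% to 24.3% of all genes. The median log2 fold change of 0.24 became 0.05 with quantile normalization, 0.08 with bright probes and -0.32 with no scaling, where that of all genes became 0.00, -0.08 and -0.47, and 0.17 to 0.37 with 1 array left out. The median relative to all genes, 0.16, became 0.01 with no filter and 0.09 to 0.20 with 1 array left out. The causes were not tested.

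The sign turned for *Ndufs1*, at 0.01 as reported, with quantile normalization (-0.00), median scaling (-0.03), bright probes (-0.15), no scaling (-0.54), z-scores (-0.09) and normexp (-0.02), and it ran from -0.05 to 0.15 with 1 array left out. It turned for *Ndufs3* with quantile normalization (-0.22), bright probes (-0.11), no scaling (-0.50) and normexp (-0.03), with -0.02 to 0.16 on leaving out 1 array. With no scaling it also turned for *Ndufaf6* (-0.03), *Ndufs8* (-0.19), *Ndufv1* (-0.19) and *Ndufv2* (-0.37). With the most variable probe *Ndufaf4* was at 0.11, and *Ndufv3* ran from -0.41 to 0.07 with 1 array left out. No other sign among the 14 members tracked turned.

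With the replicate number as a block, 0 members were called, and 0 of all genes tested. Deviations of same-numbered arrays from their group means correlated at 0.211, -0.157, -0.053 and 0.017, so the numbers were not taken to pair the mice. The precision of these values is limited by 4 arrays per genotype and by dim probes.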
